A study of Mus musculus with 3 samples.

Results

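The ephrins, semaphorins, Slits and netrins and their receptors were examined in the transcriptomes of the endoderm, mesoderm and epiblast of mouse embryos. The members were taken by symbol, as the Eph receptors, ephrins, class 3 to 7 semaphorins, plexins, neuropilins, Slits, Robo receptors, netrins, Unc5 receptors and *Dcc*. The rule found 68 of 17633 genes that had reads in at least 1 library, 35 of them ligands and 33 receptors. *Plxnb3*, which the same rule finds in the GENCODE M21 annotation of GRCm38, was not listed in any library and was taken to have 0 reads.

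The embryos were of the ICR strain at E7.5 (embryonic day 7.5, during gastrulation), with no allele or treatment named in the labels, and their germ layers were separated with enzyme and by hand. The RNA of many embryos was pooled per layer, and the tissue labelled epiblast held the neuroectoderm and the primitive streak, according to the methods of the study. There was 1 library per layer, so none of the differences below has a replicate check. The values are RPKM, the reads of a gene over its length and over the reads on genes of the library, so that levels can be compared between genes. Reads on genes came to 41.7 M for endoderm, 40.8 M for mesoderm and 42.7 M for epiblast.

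The 8 endoderm markers summed to RPKM 2439 in endoderm against 51.9 in mesoderm and 4.92 in epiblast, with *Cer1* alone at 47.4 in mesoderm. The 8 mesoderm markers summed to 31.5, 532.0 and 155.6 in the same order, and the 8 epiblast markers to 252.2, 278.5 and 1546. Each list was thus highest in its own layer. The mesoderm markers in epiblast came mainly from *Msgn1*, *Tbx6* and *Hand1*, at RPKM 38.9, 34.1 and 33.2. In mesoderm these had 35.1, 38.7 and 221.7, so *Msgn1* was higher in epiblast. The epiblast markers in the other layers came mainly from *Pou5f1*, at RPKM 36.4 in endoderm and 119.6 in mesoderm, *Dnmt3b*, at 112 and 74.3, and *T*, at 93.7 and 74.8. Their part in the results below was not tested. In such bulk RNA, fewer cells with a transcript and less of it per cell cannot be told apart.

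Guidance molecules were named for their work in steering growing axons, and they act wherever cells meet, sort or migrate. Ephrins sit in the membrane and bind Eph receptor tyrosine kinases on neighbouring cells, with signals passing into both cells. Semaphorins signal through plexins, the secreted class 3 members usually with a neuropilin as the binding subunit. Slits are secreted ligands of Robo receptors, and netrins are laminin-like ligands of Dcc, which mediates attraction, and of the Unc5 receptors, which mediate repulsion. In the gastrulating embryo the epiblast is the epithelium from which mesoderm cells leave through the primitive streak.

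Of the 68 genes, 65 had reads in all 3 libraries. RPKM was over 5 in at least 1 library for 34 and over 10 for 22, and 20 were over 5 in all 3. Another 20 reached between 1 and 5 at their highest, and 14 stayed at 1 or under. The highest level was in mesoderm for 32 genes, in epiblast for 25 and in endoderm for 11. The ligands were highest in endoderm for 9, in mesoderm for 16 and in epiblast for 10, and the receptors for 2, 16 and 15.

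A gene was counted as differentially expressed between a pair of libraries by the criteria of the study, RPKM>5 in at least 1 of the 2 libraries, Fold Change>2 and FDR<0.001, the last by the exact test that Audic and Claverie gave for read counts, which compares 2 libraries and not 2 conditions. Between endoderm and mesoderm, 16 of the 66 guidance genes with reads met the criteria, 24.2% against 11.9% of all genes tested. Of these, 5 were higher in endoderm, 7.58% against 7.44% of all genes, and 11 were higher in mesoderm, 16.7% against 4.41%. With the libraries scaled by the median of ratios or by TMM, the split was 8 and 8. These scalings aim to set the bulk of the genes equal. The median log2 ratio of all genes for this pair nevertheless moved from -0.03 to 0.08 with either. Between endoderm and epiblast, 12 of 68 met them, 17.6% against 12.6%. Here 6 were higher in endoderm, 8.82% against 8.02% of all genes, and 6 in epiblast, 8.82% against 4.58%. Between mesoderm and epiblast it was 15 of 68, 22.1% against 5.04%. Of these, 10 were higher in mesoderm, 14.7% against 2.58% of all genes, and 5 in epiblast, 7.35% against 2.45%. The 3 comparisons share their libraries and are not independent. The median log2 ratio of the guidance genes was -0.69 for endoderm over mesoderm, -0.53 for endoderm over epiblast and 0.04 for mesoderm over epiblast, and the medians of all genes were -0.03, -0.02 and 0.04.

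In all, 25 genes met the criteria in at least 1 pair, 36.8% against 16.3% of all genes, and 43 in none. *Nrp1* was the one to meet them in all 3 pairs. Called against both other layers were *Sema4a* and *Sema4g* in endoderm, 2.94% of the members against 5.78% of all genes. In mesoderm these were *Efna3*, *Epha4*, *Nrp1*, *Plxnd1*, *Robo1* and *Unc5c*, 8.82% against 1.38%, and in epiblast *Epha1* and *Ntn1*, 2.94% against 1.17%. Receptors were thus 5 of the 6 in mesoderm, and both genes in endoderm were class 4 semaphorins. Under the median of ratios or TMM, *Epha4* and *Nrp1* left the mesoderm genes and *Efnb1* joined those of endoderm. In the exact test of edgeR with a spread between samples assumed at a biological coefficient of variation of 0.4, the calls of *Nrp1* against epiblast and of *Unc5c* in mesoderm remained and all other calls were lost.

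The promoters of the genes that were higher in a layer than in both others are shown where RefSeq lists a sole start for the gene and no exon annotated in GENCODE M21 lies in the window, which left the mesoderm genes *Plxnd1*, *Robo1* and *Nrp1* and the epiblast gene *Epha1*. Each sequence is the 250 bases before the RefSeq start in GRCm38.p6, on the strand of the gene, from 5′ to 3′, with every CG in capitals. The *Robo1* and *Nrp1* starts used here lie inside the longer genes annotated by GENCODE.
Plxnd1 (chr6:115995006-115995255, minus strand): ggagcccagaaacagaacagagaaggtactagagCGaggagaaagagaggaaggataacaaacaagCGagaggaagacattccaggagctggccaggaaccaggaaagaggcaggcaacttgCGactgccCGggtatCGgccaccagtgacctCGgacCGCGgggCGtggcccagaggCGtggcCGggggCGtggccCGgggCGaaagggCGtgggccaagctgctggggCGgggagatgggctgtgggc
Robo1 (chr16:72662899-72663148, plus strand): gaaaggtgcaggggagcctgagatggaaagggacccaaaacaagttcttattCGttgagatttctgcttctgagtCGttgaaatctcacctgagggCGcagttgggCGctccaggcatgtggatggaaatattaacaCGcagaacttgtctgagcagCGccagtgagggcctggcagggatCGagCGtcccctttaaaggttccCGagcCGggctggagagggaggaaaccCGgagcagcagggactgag
Nrp1 (chr8:128358823-128359072, plus strand): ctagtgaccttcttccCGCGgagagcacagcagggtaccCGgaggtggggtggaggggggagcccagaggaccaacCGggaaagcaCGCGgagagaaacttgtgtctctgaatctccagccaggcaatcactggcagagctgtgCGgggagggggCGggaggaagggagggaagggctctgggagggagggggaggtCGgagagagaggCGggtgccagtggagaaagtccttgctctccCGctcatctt
Epha1 (chr6:42373269-42373518, minus strand): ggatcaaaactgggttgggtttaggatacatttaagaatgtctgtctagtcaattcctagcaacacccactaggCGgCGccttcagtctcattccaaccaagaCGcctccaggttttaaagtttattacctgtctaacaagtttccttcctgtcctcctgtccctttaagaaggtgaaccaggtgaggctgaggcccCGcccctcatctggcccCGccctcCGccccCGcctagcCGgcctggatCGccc

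The window held 16 CG for *Plxnd1*, 11 for *Robo1*, 11 for *Nrp1* and 9 for *Epha1*, and the median of the 32851 RefSeq promoters was 6. Fewer CG were found in 74.6% of all promoters than in that of *Plxnd1*, in 64.4% for *Robo1* and *Nrp1* and in 59.7% for *Epha1*. The letters GGGCGG, the core of the binding site of Sp1, were searched on both strands, and they overlap the CG counted above. They were found 3 times in *Epha1*, in 1 place in *Plxnd1* and in 1 in *Nrp1*, and 32.7% of all promoters hold them. CACCTG, bound by Snail and E-box factors, was in 1 place each in *Epha1* and *Robo1*, and in 17.2% of all promoters. None of the 4 windows held TATAAA, the core of a TATA box, which is in 12.4% of all promoters. Nor did they hold CACACC, a site of T-box factors and in 16.3% of all promoters, or on either strand AGATAA, a site of Gata factors and in 9.99%. A match is a string of letters and not a measured site.

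**Figure D1:**
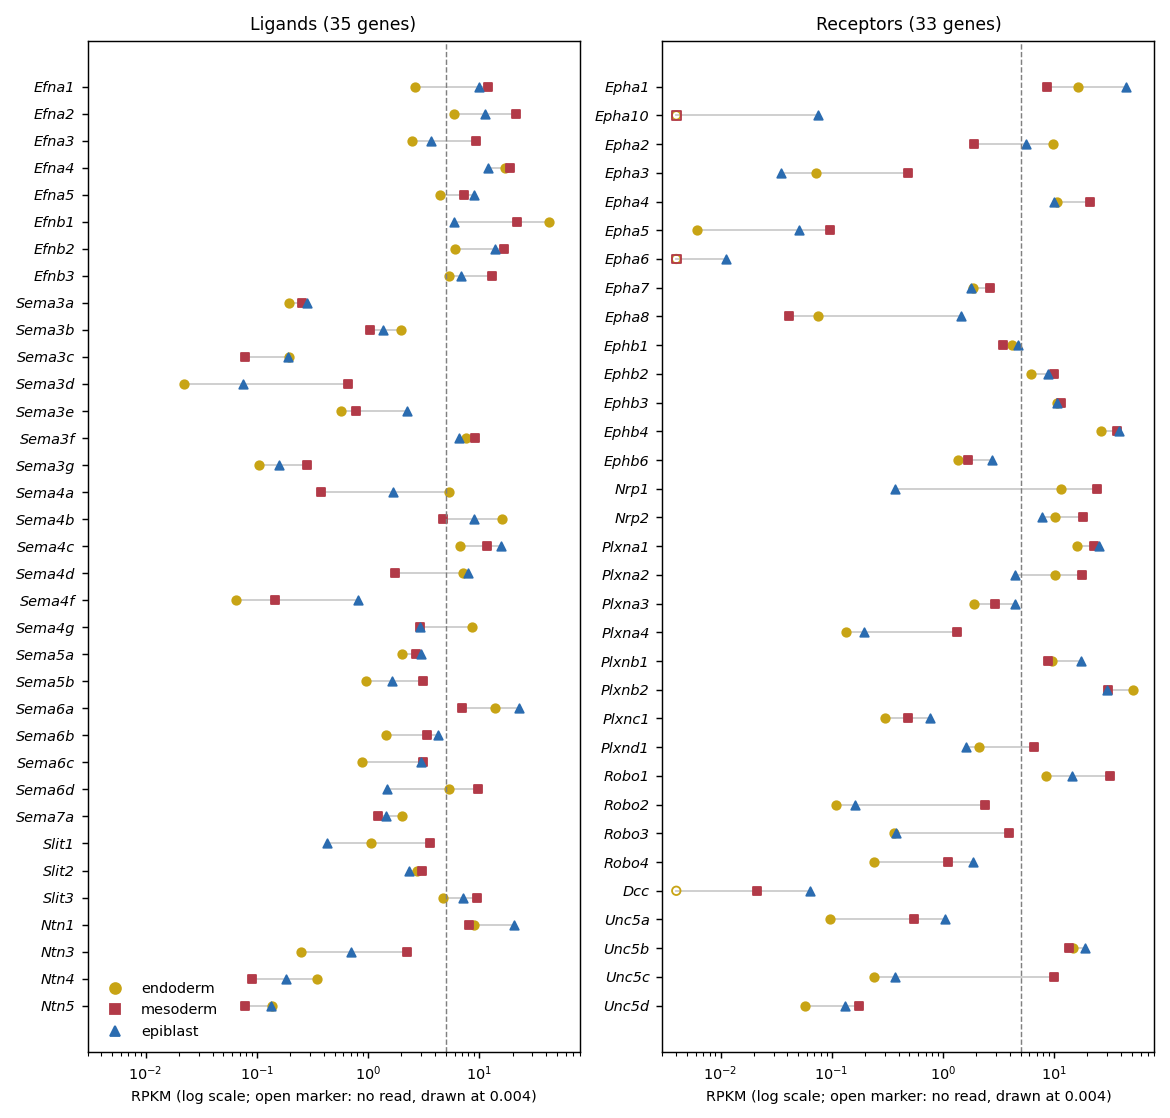
RPKM of each of the 35 ligand genes (left) and 33 receptor genes (right) in the endoderm, mesoderm and epiblast libraries, on a log axis, with 1 marker per library and a dashed line at RPKM 5. Open markers are libraries with no read. *Efnb1* spreads from 5.98 in epiblast to 42.2 in endoderm, *Nrp1* and *Unc5c* have their epiblast values far to the left of mesoderm, and the *Ephb3* and *Plxna1* markers lie close together.

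Summed over the genes of each class, ligands and receptors had different highest layers for ephrins, semaphorins and netrins and the same for Slits. Ephrin ligands summed to RPKM 86.2 in endoderm, 120.6 in mesoderm and 73.0 in epiblast, while their receptors summed to 88.1, 98.6 and 129.2. The ligand sum was thus highest in mesoderm, 1.40 times the next layer, and the receptor sum in epiblast, 1.31 times the next. The receptors of this system carried 1.02 times the RPKM of the ligands in endoderm, 0.818 times in mesoderm and 1.77 times in epiblast. *Epha1* alone made up 34.5% of the receptor sum in epiblast, and without it the sum in epiblast was 0.941 times that in mesoderm.

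Semaphorins summed to 81.1 in endoderm against 64.3 in mesoderm and 86.7 in epiblast, and the plexins and neuropilins to 113.8, 133.3 and 92.5. The semaphorins were lowest, and their receptors highest, in mesoderm. Receptors over ligands came to 1.40, 2.07 and 1.07. The excess of the semaphorin sum in epiblast over endoderm was 1.07 times and turned to 0.991 under the median of ratios or TMM. Within the ligands, class 4 held 43.9, 21.7 and 38.1, class 6 held 21.5, 23.2 and 31.6, class 3 held 10.6, 12.4 and 10.9, and class 5 held 2.96, 5.85 and 4.64. Within the receptors, neuropilins held 21.8, 42.3 and 8.14, A-type plexins 28.3, 44.7 and 34.7, and B-type plexins 61.2, 39.2 and 47.3. Class 4 and the B-type plexins that bind it were both lowest in mesoderm, while the neuropilins were 5.19 times higher there than in epiblast.

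Both sides of the Slit system were highest in mesoderm. The Slits summed to 8.61, 16.2 and 9.95 in endoderm, mesoderm and epiblast, and the Robo receptors to 9.12, 39.3 and 16.8. The Robo sum in mesoderm was 2.34 times the next layer, and *Robo1* made up 81.1% of it. The netrins summed to 9.70, 10.6 and 21.5, 2.04 times higher in epiblast than in the next layer, and *Ntn1* made up 95.3% of that sum. Their receptors summed to 15.3, 24.3 and 20.8. Most of this was *Unc5b*, 56.0% of the mesoderm sum, and without it the receptor sum in mesoderm was 6.59 times the next. Receptors over ligands were 2.42 in mesoderm for Slit and 2.30 for netrin, and 0.968 for netrin in epiblast. Netrin receptors and ligands, as taken by symbol here, were thus near balance in epiblast only. This sum leaves out *Neo1*, which also binds netrins and had RPKM 20.1, 19.4 and 12.4, so the near balance holds without it.

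**Figure D2:**
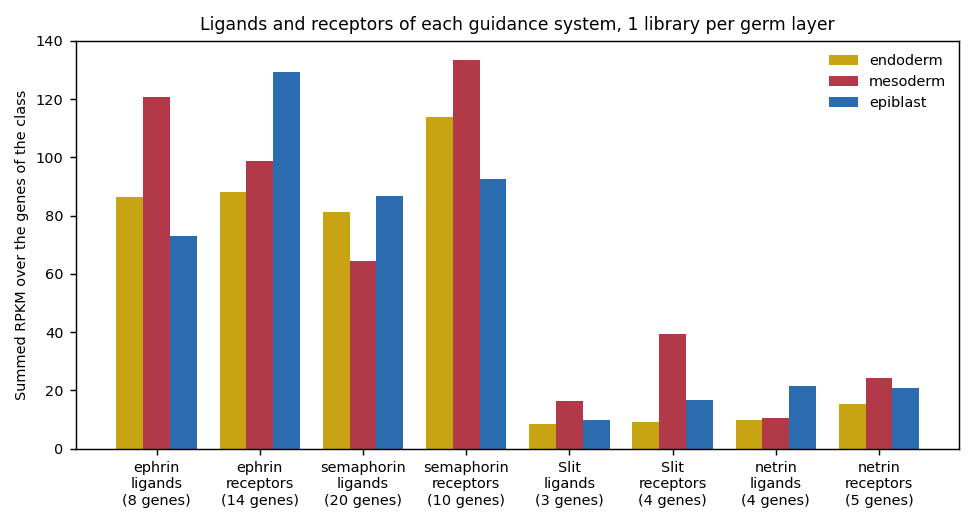
Summed RPKM (bars from 0) of the ligand and receptor genes of each guidance system in the endoderm, mesoderm and epiblast libraries, with the number of genes in each class under the axis and no error bars, since there was 1 library per layer. Ephrin ligands peak in mesoderm at 120.6 and ephrin receptors in epiblast at 129.2, while Robo receptors reach 39.3 in mesoderm.

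The A-type ephrins, which are held to the membrane by a lipid anchor, summed to RPKM 32.7, 69.3 and 46.1 in endoderm, mesoderm and epiblast, lowest in endoderm. *Efna1* had RPKM 2.64 in endoderm against 12 in mesoderm and 10.1 in epiblast. The gene was 4.56-fold higher in mesoderm than in endoderm (95% counting interval 3.84 to 5.44) and 3.81-fold higher in epiblast (3.2 to 4.56). These intervals are exact for the reads of the pair of libraries and cover counting error only. *Efna2* had 5.99, 21.6 and 11.3 in the same order of layers and was 3.60-fold higher in mesoderm than in endoderm (3.27 to 3.97). *Efna3* had 2.51, 9.31 and 3.71, 3.71-fold over endoderm (3.05 to 4.55) and 2.51-fold over epiblast (2.12 to 2.98) in mesoderm. All 3 genes were highest in mesoderm, and *Efna3* was the one that met the criteria against both other layers. *Efna5* had 4.44, 7.27 and 9.01 and exceeded endoderm 2.03-fold in epiblast (1.88 to 2.19), a call that was lost with 3 of the 4 other scalings. *Efna4*, at 17.1, 19.1 and 12, met the criteria in no pair.

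The B-type ephrins span the membrane, and they differed from each other. *Efnb1* had 42.2 in endoderm, with 21.7 in mesoderm and 5.98 in epiblast, the highest ligand level in the set. It was 7.05-fold higher in endoderm than in epiblast (6.55 to 7.59) and 3.63-fold higher in mesoderm than in epiblast (3.36 to 3.92). Endoderm over mesoderm, at 1.94-fold (1.86 to 2.03), stayed just under the fold criterion. *Efnb2* had 6.02, 16.7 and 14.0, 2.77-fold higher in mesoderm than in endoderm (2.58 to 2.97) and 2.33-fold higher in epiblast (2.17 to 2.50). *Efnb3* had 5.37, 12.9 and 6.93 and was 2.40-fold higher in mesoderm than in endoderm (2.2 to 2.63). Endoderm was thus the highest layer for *Efnb1* and the lowest for *Efnb2* and *Efnb3*.

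Among the 14 Eph receptors, 3 met the criteria in at least 1 pair, all of the A type, where 16.3% of all genes did. *Epha1* had 16.5 in endoderm against 8.68 in mesoderm and 44.6 in epiblast, the highest receptor level there. In epiblast it exceeded endoderm 2.71-fold (2.58 to 2.84) and mesoderm 5.13-fold (4.82 to 5.47). Its exons share 6.01% of their bases with *Zyx* on the opposite strand, and whether counting used the strand is not given in the sources used here. *Zyx* had 4123, 6308 and 7321 reads and *Epha1* 2245, 1161 and 6227. *Epha2*, which binds A-type ephrins, had 9.77, 1.91 and 5.56. It was 5.11-fold higher in endoderm (4.52 to 5.80) and 2.91-fold higher in epiblast (2.56 to 3.32) than in mesoderm. *Epha1* and *Epha2* thus had mesoderm as their lowest layer. *Epha4*, which binds ephrins of both types, had 10.6, 21.2 and 9.98. It was 2.003-fold higher in mesoderm than in endoderm (1.91 to 2.10), on the edge of the fold criterion, and 2.12-fold higher than in epiblast (2.03 to 2.23). The call against endoderm was lost with 3 of the 4 other scalings.

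The B-type Eph receptors met the criteria in no pair, although most were well expressed. *Ephb4* had 26.7 in endoderm, with 36.8 in mesoderm and 38.6 in epiblast. *Ephb3* had 10.7, 11.6 and 10.7, and *Ephb2* 6.25, 9.98 and 8.85. *Ephb1*, at 4.19, 3.49 and 4.77, and *Ephb6*, a receptor without kinase activity, at 1.37, 1.70 and 2.78, stayed under 5. The widest spread among these 5 genes was that of *Ephb6*, 2.02-fold between epiblast and endoderm, below the RPKM criterion. The remaining A-type receptors were low. *Epha7* had 1.89, 2.65 and 1.77, and *Epha3*, *Epha5*, *Epha6* and *Epha10* stayed under 0.5, with *Epha6* at 2 reads and *Epha10* at 4 reads in epiblast and none in the other layers. *Epha8* had 296 reads in epiblast, 15 in endoderm and 8 in mesoderm, at RPKM 1.46, 0.0761 and 0.0414 in that order. Its epiblast level was 19.2 times that of endoderm (11.5 to 34.8).

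The semaphorins that met the criteria as higher in endoderm than in another layer were of the transmembrane classes 4 and 6. *Sema4a* had 5.35 in endoderm against 0.380 in mesoderm and 1.69 in epiblast, from 719, 50 and 233 reads. It was 14.1-fold higher in endoderm than in mesoderm (10.6 to 19.2) and 3.16-fold higher than in epiblast (2.73 to 3.68). *Sema4g* had 8.63, 2.96 and 2.92, 2.92-fold over mesoderm (2.64 to 3.23) and 2.96-fold over epiblast (2.68 to 3.27) in endoderm. For both, mesoderm and epiblast lay well below endoderm. *Sema4b* had 16.0, 4.69 and 8.91 and was 3.41-fold higher in endoderm than in mesoderm (3.15 to 3.71).

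*Sema4d*, a ligand of *Plxnb1*, had 7.09 in endoderm, with 1.73 in mesoderm and 8.0 in epiblast. The gene was 4.09-fold higher in endoderm (3.61 to 4.64) and 4.62-fold higher in epiblast (4.08 to 5.23) than in mesoderm. *Sema4c*, which binds B-type plexins, had 6.78, 11.8 and 15.7 and exceeded endoderm 2.32-fold in epiblast (2.16 to 2.49). *Sema4f* stayed at 0.812 or under. Mesoderm was the lowest layer for *Sema4a*, *Sema4b* and *Sema4d*, and *Sema4c* was the one class 4 gene over RPKM 5 there.

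The class 6 semaphorins are ligands of the A-type plexins, and the 2 that met the criteria went in different directions. *Sema6a* had 13.9 in endoderm against 6.98 in mesoderm and 22.9 in epiblast and was 3.28-fold higher in epiblast than in mesoderm (3.12 to 3.45). *Sema6d* had 5.30, 9.73 and 1.47, 6.61-fold higher in mesoderm (5.96 to 7.36) and 3.60-fold higher in endoderm (3.23 to 4.03) than in epiblast. The layer with the most *Sema6a* was thus the one with the least *Sema6d*. *Sema6b*, at 1.44, 3.38 and 4.25, and *Sema6c*, at 0.878, 3.10 and 3.01, did not reach RPKM 5 and were lowest in endoderm.

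The secreted class 3 semaphorins were low apart from *Sema3f*, a ligand of *Nrp2*, at 7.57, 9.26 and 6.56 and with no call. *Sema3b* had 1.98, 1.04 and 1.37. *Sema3e*, which binds *Plxnd1* without a neuropilin, had 0.569, 0.783 and 2.25, 2.87 times higher in epiblast than in mesoderm (2.46 to 3.36) but under RPKM 5. *Sema3a*, *Sema3c*, *Sema3d* and *Sema3g* reached at most 0.657, that of *Sema3d* in mesoderm with 175 reads against 6 in endoderm and 21 in epiblast. *Sema5a* had 2.01, 2.70 and 3.0, *Sema5b* 0.954, 3.14 and 1.64, and *Sema7a*, the ligand of *Plxnc1*, 2.04, 1.22 and 1.47. None of the class 3, 5 and 7 genes met the criteria.

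The largest difference of the set was in a semaphorin receptor. *Nrp1*, which binds class 3 semaphorins and is also a co-receptor for VEGF (chr8:128358604-128503363, GRCm38), had 11.6 in endoderm, with 24.2 in mesoderm and 0.368 in epiblast, from 2863, 5851 and 93 reads. It was 65.8-fold higher in mesoderm (53.6 to 81.6) and 31.6-fold higher in endoderm (25.7 to 39.2) than in epiblast. Mesoderm over endoderm was 2.08-fold (1.99 to 2.18), and this call was lost under the median of ratios and TMM. *Nrp2* had 10.2, 18.1 and 7.78 and was 2.33-fold higher in mesoderm than in epiblast (2.21 to 2.45). Both neuropilins had the same order of layers, but the epiblast kept *Nrp2* over RPKM 5 and *Nrp1* under 1.

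*Plxna2*, a signalling partner of the neuropilins and a receptor of class 6 semaphorins, had 10.2 in endoderm against 17.7 in mesoderm and 4.46 in epiblast. The gene was 3.97-fold higher in mesoderm (3.79 to 4.17) and 2.30-fold higher in endoderm (2.18 to 2.42) than in epiblast, the same order as the neuropilins. *Plxnd1*, the receptor of *Sema3e*, had 2.09, 6.66 and 1.61, 3.18-fold over endoderm (2.90 to 3.49) and 4.15-fold over epiblast (3.75 to 4.60) in mesoderm. Its ligand was highest in epiblast. *Plxna1*, at 16.0, 22.7 and 25.5, met the criteria in no pair, nor did *Plxnb1*, at 9.63, 8.83 and 17.6, or *Plxnb2*, the highest plexin, at 51.6, 30.4 and 29.7. *Plxnb1* lay on the margin, with 1.99-fold more in epiblast than in mesoderm (1.91 to 2.08). *Plxna3*, at 1.91, 2.97 and 4.46, *Plxna4*, at 0.135, 1.33 and 0.195, and *Plxnc1*, at 0.303, 0.482 and 0.766, stayed under 5.

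*Nrp1* and *Plxnd1* are also known from endothelial cells, which begin to form in the mesoderm at about this stage. All 8 endothelial markers had reads, and they summed to RPKM 2.2 in endoderm, 7.69 in mesoderm and 1.77 in epiblast. None was over 5. The highest layer was mesoderm for 6 of the 8. *Pecam1* had 0.349, 2.53 and 0.262, *Cdh5* 0.150, 1.27 and 0.0585, and *Tek* 0.0310, 2.204 and 0.453, while *Emcn* had 4 reads in mesoderm and 0 in the other layers. *Vwf* was highest in endoderm, at 1.02, 0.119 and 0.0372, and *Cldn5* in epiblast, at 0, 0.0345 and 0.742. *Kdr*, in the mesoderm list above, had 0.272, 40.8 and 0.771. Their part in the result was not tested.

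The Slit system held the mesoderm as its highest layer in 6 of its 7 genes. *Robo1* had 8.41 in endoderm, with 31.9 in mesoderm and 14.4 in epiblast, 3.79-fold over endoderm (3.63 to 3.96) and 2.21-fold over epiblast (2.14 to 2.29) in mesoderm. *Robo2* had 0.110, 2.40 and 0.163, from 37, 789 and 56 reads, and *Robo3* 0.361, 3.91 and 0.377, from 71, 755 and 76 reads. Both stayed under RPKM 5 and met the criteria in no pair, at 14.7 times (11.2 to 19.7) and 10.4 times (8.20 to 13.3) the epiblast level in mesoderm. *Robo4*, best known from endothelium, was the exception, at 0.241, 1.11 and 1.88. Among the ligands, *Slit3* had 4.76, 9.62 and 7.20 and was 2.02-fold higher in mesoderm than in endoderm (1.87 to 2.18), a call lost with 3 of the 4 other scalings. *Slit1* had 1.07, 3.57 and 0.429, and *Slit2* 2.78, 3.06 and 2.32, both under 5.

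In the netrin system the main ligand and the receptor with the widest range lay in different layers. *Ntn1* had 8.97 in endoderm against 8.13 in mesoderm and 20.5 in epiblast. In epiblast it exceeded endoderm 2.28-fold (2.17 to 2.40) and mesoderm 2.52-fold (2.39 to 2.65). *Unc5c* (chr3:141465216-141834924, GRCm38), a receptor that mediates repulsion, had 0.240, 9.94 and 0.373, from 93, 3775 and 148 reads. It was 41.4-fold higher in mesoderm than in endoderm (33.7 to 51.4) and 26.7-fold higher than in epiblast (22.6 to 31.6). The other layers thus held *Unc5c* under RPKM 1.

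*Unc5b*, at 14.9, 13.6 and 19.2, was the highest of the *Unc5* and *Dcc* genes in each layer and met the criteria in no pair. *Unc5a* had 0.0967, 0.554 and 1.05, and *Unc5d* 0.0573, 0.178 and 0.132. *Dcc*, the receptor that mediates attraction, had 28 reads in epiblast, 9 in mesoderm and 0 in endoderm, where up to 3 are allowed by a count of 0. It reached an RPKM of 0.0635 at most. *Neo1*, a relative of *Dcc* that also binds netrins, had 20.1, 19.4 and 12.4 and met the criteria in no pair. *Ntn3* had 0.249, 2.25 and 0.696, from 51, 452 and 146 reads. *Ntn4* and *Ntn5* stayed at 0.349 or under, and *Ntn5* shares 23.4% of its exon bases with *Sec1* on the opposite strand. It was the one member with over 10% of its exon bases in another protein-coding gene.

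Of the genes that stayed under RPKM 5, 7 were at least 4 times higher in a layer than in the next. These were *Epha3*, *Sema3d*, *Plxna4*, *Robo2* and *Robo3* in mesoderm and *Epha8* and *Sema4f* in epiblast, and none in endoderm. Whether this differs from all genes under RPKM 5 was not tested.

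**Figure D3:**
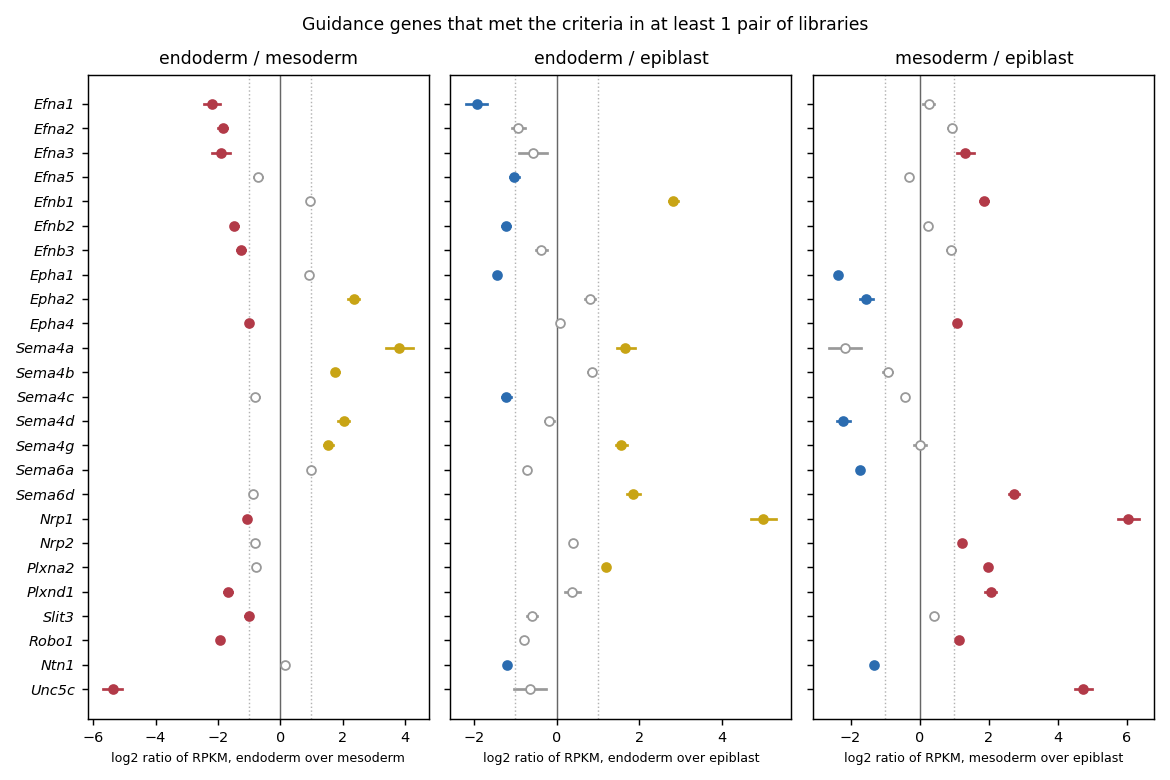
Log2 ratio of RPKM between each pair of libraries for the 25 guidance genes that met the criteria in at least 1 pair, with bars for the exact 95% counting interval and dotted lines at a fold of 2. Filled points met the criteria and take the colour of the higher layer (ochre endoderm, red mesoderm, blue epiblast), open points did not. *Nrp1* and *Unc5c* lie farthest from 0, and 11 of the 16 filled points for endoderm over mesoderm are red, which would be 8 of 16 under the median of ratios or TMM.

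Known ligand and receptor pairs were set side by side from a list of 124 pairs. Each partner was over RPKM 5 in some layer, not always the same, in 44, and of these the partners had the same highest layer in 21 and different ones in 23. Both were over 5 in the same library in 33 pairs for endoderm, 35 for mesoderm and 33 for epiblast, and in 22 pairs in all 3. Members share partners, so these pairs are not independent. *Efnb1* was highest in endoderm and its receptors *Ephb2*, *Ephb3* and *Epha4* in mesoderm, and *Efnb2* and *Efnb3* were highest in mesoderm with those receptors. The other receptors listed for these ligands, *Ephb4* and *Ephb1*, were highest in epiblast. *Ephb2*, *Ephb3*, *Ephb4* and *Ephb1* exceeded their next layer 1.13-fold, 1.08-fold, 1.05-fold and 1.14-fold, with no call in any pair. The counts of same and different highest layers include such small differences. *Slit3* and *Robo1* were both highest in mesoderm, *Sema4d* and *Plxnb1* both in epiblast, and *Ntn1* and *Unc5b* both in epiblast. *Ntn1* and *Unc5c* exceeded 5 together in mesoderm alone. *Efna3* and *Epha2* did so in no layer, since *Efna3* was over 5 in mesoderm, where *Epha2* was at 1.91.

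Some members lie close together in the genome. *Efna1*, *Efna3* and *Efna4* stand in a row on the minus strand of chromosome 3 (GRCm38), with gaps of 32.8 and 10.4 kb, and each was highest in mesoderm. *Robo1* and *Robo2*, 845.7 kb apart on chromosome 16, were both highest in mesoderm. *Robo3* and *Robo4* lie tail to tail on chromosome 9, with 554 bases between their ends, and *Robo3* was highest in mesoderm and *Robo4* in epiblast. *Sema3b* and *Sema3f*, 72.3 kb apart on the same chromosome, were highest in endoderm and mesoderm, and *Ephb2* and *Epha8*, 93.4 kb apart on chromosome 4, in mesoderm and epiblast.

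The co-receptors, adaptors and effectors of these pathways were taken from a list of 73 genes with reads. Of these, 20 met the criteria in at least 1 pair, where 16.3% of all genes did. Between endoderm and mesoderm, 6 of the 73 were higher in endoderm, where 7.44% of all genes were, and 9 in mesoderm, where 4.41% were. Between endoderm and epiblast, 5 were higher in endoderm, where 8.02% of all genes were, and 8 in epiblast, where 4.58% were. Between mesoderm and epiblast, 2 were higher in mesoderm, where 2.58% of all genes were, and 3 in epiblast, where 2.45% were. The shares higher in endoderm, and that higher in mesoderm than in epiblast, were thus close to those of all genes. By system, 2 of 18 genes met them for ephrin, 8 of 24 for semaphorin, 5 of 13 for Slit and 5 of 18 for netrin.

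The semaphorin effectors held a group of CRMP proteins, cytosolic relays of semaphorin signals to the cytoskeleton. *Crmp1* had 2.81 in endoderm, with 16.5 in mesoderm and 52.7 in epiblast and met the criteria in all 3 pairs. *Dpysl2* had 1.75, 10.5 and 8.99, and *Dpysl5* 12.1, 31.7 and 31.8, and both were higher in mesoderm and in epiblast than in endoderm. *Dpysl3*, of the same group, had 4.83, 1.59 and 7.38 and was higher in epiblast than in mesoderm. Of the other semaphorin effectors, *Rnd2*, a small GTPase, had 13.4, 5.48 and 7.63, and *Met*, a receptor tyrosine kinase, had 5.18, 2.24 and 3.11, both higher in endoderm than in mesoderm. *Mical1*, which oxidises actin, had 7.48, 17.7 and 10.3 and was higher in mesoderm than in endoderm, and *Rnd3* had 21.2, 28.2 and 13.2 and was higher in mesoderm than in epiblast. Of the Slit effectors, *Abl1*, a tyrosine kinase, had 12.1, 27.4 and 24.2, *Enah*, an actin regulator, 21.1, 42.3 and 42.9, and *Gpc1*, a heparan sulphate proteoglycan that binds Slit, 8.10, 32.4 and 29.6. Each of these was lower in endoderm than in both other layers. *Evl*, a relative of *Enah*, had 11.5, 31.7 and 22.7 and was lower in endoderm than in mesoderm. *Srgap1*, a GTPase activator that binds Robo, went the other way, at 5.70, 1.43 and 1.45. In the netrin list, *Flrt3*, a ligand of Unc5 receptors, had 35.0, 7.35 and 9.22, and *Adora2b*, an adenosine receptor reported to bind netrin, 47.3, 0.611 and 0.356. Both were higher in endoderm than in both other layers. *Ablim1* had 5.16, 3.67 and 2.48 and was higher in endoderm than in epiblast. *Dapk1*, a kinase linked to Unc5 receptors, had 9.13, 18.3 and 20.5 and was lower in endoderm than in both other layers, and *Rgma*, a ligand of *Neo1*, had 10.3, 16.0 and 28.5 and was higher in epiblast than in endoderm. *Pick1*, which binds ephrins, had 14.4, 4.23 and 14.6 and was lower in mesoderm than in both other layers. *Adam10*, a protease that cuts ephrins, had 30.8, 17.1 and 8.33 and was higher in endoderm and in mesoderm than in epiblast.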

How the data were processed

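The authors sequenced total RNA of the E7.5 endoderm, mesoderm and epiblast (Illumina HiSeq, paired-end) and deposited a table per layer. The deposited counts are uniquely mapped reads per gene, without normalization. The deposited RPKM equals reads over gene length and over the reads on genes, within a relative difference of 2.03e-07, and was used without further scaling. The deposited coverage, a percent of gene length, was read and not tested. TopHat, mm10 and mm9 are named in the submitters' processing notes, and the paper gives TopHat for splicing. Which of these made the gene tables is not given in the sources used here.

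Reads on genes per library set the precision, and counts of 0 allow up to 3 reads. Intervals and this limit hold for counting error alone. Folds against 3 reads or fewer were taken against 3 reads and are lower bounds. The quasi-likelihood test of edgeR needs replicates and could not be fitted. The FDR was that of the Audic and Claverie test (exact, two-sided), with Benjamini-Hochberg adjustment over all genes with a read in either library. Folds have exact (Clopper-Pearson) 95% intervals. Alternatives were RPKM>1, RPKM>10 or no minimum, Fold Change>4, 4 other scalings (TMM, median of ratios, upper quartile, equal RPKM totals), a pseudocount of 1, no FDR criterion, and the exact test of edgeR at a preset biological coefficient of variation (0.2 or 0.4). Class sums were also taken without their highest member and as geometric means.

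Named with values were the members that met the criteria in a pair, those over RPKM 5 and those near a criterion. Most other members of the listed ligand and receptor pairs were also named with values, and the rest were given by range. The members and lists were chosen with earlier results of these data known. *Foxf1* was found as *Foxf1a* and *Draxin* as *2610109H07Rik*. Grb4 and *Nck2* are the same gene. Further marker lists, summed as RPKM in endoderm, mesoderm and epiblast, gave 3.65, 5.92 and 1.41 for primitive erythroid cells (4 of 7 with reads), 45.9, 28.5 and 39.7 for trophoblast (6 of 9), 1.44, 5.04 and 3.47 for decidua (6 of 7), and 234.2, 365.7 and 140.7 for parietal endoderm (5 of 5). *Vim* made up 243.9 of the parietal endoderm sum in mesoderm, and *Cdx2* 37.1 of the trophoblast sum in epiblast. Other genes of these 2 lists were highest in endoderm, as *Sparc* at 165.4, *Plac1* at 19.9 and *Esx1* at 7.11. The part of these lists in the results was not tested. Of the 68 members, 58 have a RefSeq promoter, and all 68 matched GENCODE M21. Protein sequences, the microarray and splicing data were not analysed here. The tools were edgeR 4.0.16 in R 4.3.3, and SciPy 1.17.1, numpy 2.4.6, pandas 2.3.3 and matplotlib 3.10.9 in Python 3.11.15.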

Additional observations from a re-analysis of the deposited data

How the results depend on the processing

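No paired analysis was possible because each layer had 1 library and the layers share no replicate number beyond 1, and for the same reason no library could be left out. The number of guidance genes called moved most with the RPKM minimum and the assumed spread. Between endoderm and mesoderm, 16 became 25 with RPKM>1, 32 with no minimum, 8 with RPKM>10, 5 with Fold Change>4, and 10 or 1 in the exact test of edgeR at an assumed coefficient of 0.2 or 0.4. Between endoderm and epiblast, 12 became 21, 25, 8, 2, 5 and 1, and between mesoderm and epiblast 15 became 23, 26, 9, 6, 9 and 2, in the same order. For endoderm against epiblast, the share fell under that of all genes at Fold Change>4, with 2 of 68 against 898 of 17267. It also did so at 0.4, with 1 against 331, and at 0.2 it was close, with 5 against 1235. For endoderm against mesoderm it fell under at 0.4, with 1 of 66 against 387 of 17194. In the other settings of this list the share of the guidance genes stayed above that of all genes. Genes higher in the first and the second layer of a pair split 5 and 11 for endoderm and mesoderm. They split 5 and 20 with RPKM>1, 6 and 26 with no minimum and 1 and 7 with RPKM>10. The split was 4 and 6 at 0.2, and with Fold Change>4 the order turned, at 3 and 2. For endoderm and epiblast the main split was 6 and 6. In the same order of settings it became 7 and 14, 7 and 18, 3 and 5, 4 and 1, and 2 and 0. At a coefficient of 0.4, *Unc5c* remained for endoderm against mesoderm, *Nrp1* for endoderm against epiblast, and both for mesoderm against epiblast. Scaling by the median of ratios raised the median log2 ratio of all genes for endoderm over mesoderm from -0.03 to 0.08, and upper quartile scaling lowered that for endoderm over epiblast from -0.02 to -0.16. Under the median of ratios and TMM, *Epha4*, *Nrp1* and *Slit3* were lost for endoderm against mesoderm and *Efnb1*, *Epha1* and *Sema6a* gained. Of the 43 called gene values, 4 were lost under TMM, 4 under the median of ratios, 3 with equal RPKM totals, 4 with a pseudocount of 1 and 0 under the upper quartile. The fold of the highest class sum over the next became 0.941 for ephrin receptors without *Epha1*, 0.991 for semaphorins under the median of ratios and TMM and 0.95 without *Sema6a*, 6.59 for netrin receptors without *Unc5b*, and, for netrins, 1.96 with the same RPKM total, 0.419 without *Ntn1* and 1.09 as geometric means. *Dcc*, *Epha5*, *Epha6*, *Epha10* and *Ntn5* had 31 reads or fewer in each library, and all but *Ntn5* had at most 3 reads in at least 1 of them, so that the sizes of their differences are poorly set by the reads.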
